A study of Mus musculus with 25 samples.

Results

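The interaction of radiation with FTY720 asks whether the lung answers radiation differently when FTY720 is given. It was taken per gene from group means on the log2 scale, as the difference that radiation made in mice given FTY720 (radiation+FTY minus FTY) minus the difference that radiation made in mice without it (radiation minus control). This double difference is called the interaction term below. A positive term means that a gene rose more, or fell less, with radiation under FTY720. The 4 groups held 13 of the 25 arrays of the study, 1 array per mouse. Mice of the radiation+FTY group (n = 3) received 25 Gy once to the thorax and FTY720 at 0.1 mg/kg, injected intraperitoneally 2 times per week. The FTY group (n = 3) received the same injections without radiation. The radiation group (n = 3) received 25 Gy, and its labels name no vehicle. The control group (n = 4) received phosphate-buffered saline. Every mouse was a wild-type C57BL/6J female of 14 to 17 weeks and 20 to 25 g, and 6 µg of total lung RNA went onto each Affymetrix array. The sources used here do not give the time from irradiation to collection or the hour of collection. The study as a whole asked whether analogues of sphingosine 1-phosphate (S1P) protect the irradiated lung, and it also tested SEW-2871 and (S)-FTY-phosphonate.

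FTY720 (fingolimod) resembles sphingosine. Sphingosine kinases phosphorylate it, and the phosphate binds the S1P receptors other than S1pr2. In the lung, S1P acting on S1pr1 of endothelial cells tightens the vessel wall, and on lymphocytes the same receptor is drawn into the cell by FTY720 phosphate, so that the cells stay in lymph nodes. Ionising radiation sets off the p53 response in lung cells and later draws neutrophils and monocytes into the tissue.

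Deposited signals became log2(signal + 16), and 12937 genes were tested, each through its probe set of highest mean. Terms are given ± SE from 1 limma fit over all 25 arrays, and genes with a Benjamini-Hochberg adjusted p of at most 0.05 over all genes tested were called. The 6 lung markers Sftpc, Sftpb, Scgb1a1, Ager, Pecam1 and Cdh5 lay between 10.53 and 13.56 log2 units on the 13 arrays. Other tissue differed between arrays. The mean of 19 skeletal muscle genes was 11.31, 7.00 and 10.87 on the radiation+FTY arrays, 6.82, 6.58 and 6.65 on the FTY arrays, 6.41, 8.47 and 6.63 on the radiation arrays, and 6.64, 10.60, 6.64 and 6.47 on the control arrays. Control replicate 4 went against its label in another list. The mean of 25 p53 target genes was 9.99 there, against 9.34 to 9.43 on the other control arrays and 9.88 to 9.96 on the irradiated arrays of both kinds. In RNA of whole tissue, fewer cells of a type and less RNA per cell cannot be told apart.

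The limma fit called 885 of the 12937 genes for the interaction (6.84%), 617 with a positive term (4.77%) and 268 with a negative one (2.07%). At an unadjusted p under 0.05 there were 3075 genes. The median term over all genes was 0.05, and the median half-width of its 95% confidence interval was 0.30. Radiation called 1826 genes under FTY720 (14.1%) and 569 without it (4.40%). FTY720 called 391 genes after radiation (3.02%) and 353 in mice without radiation (2.73%). Among the 885 genes, 804 (90.8%) had radiation responses of opposite sign with and without FTY720, against 51.0% of all genes tested. A large double difference favours opposite signs by its construction, so this share describes the called genes and tests nothing. Their median change with radiation was 0.33 log2 units in size under FTY720 and 0.17 without it. In the plot of the 2 radiation responses, called genes lie above and left of the diagonal or below and right of it.

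**Figure D1:**
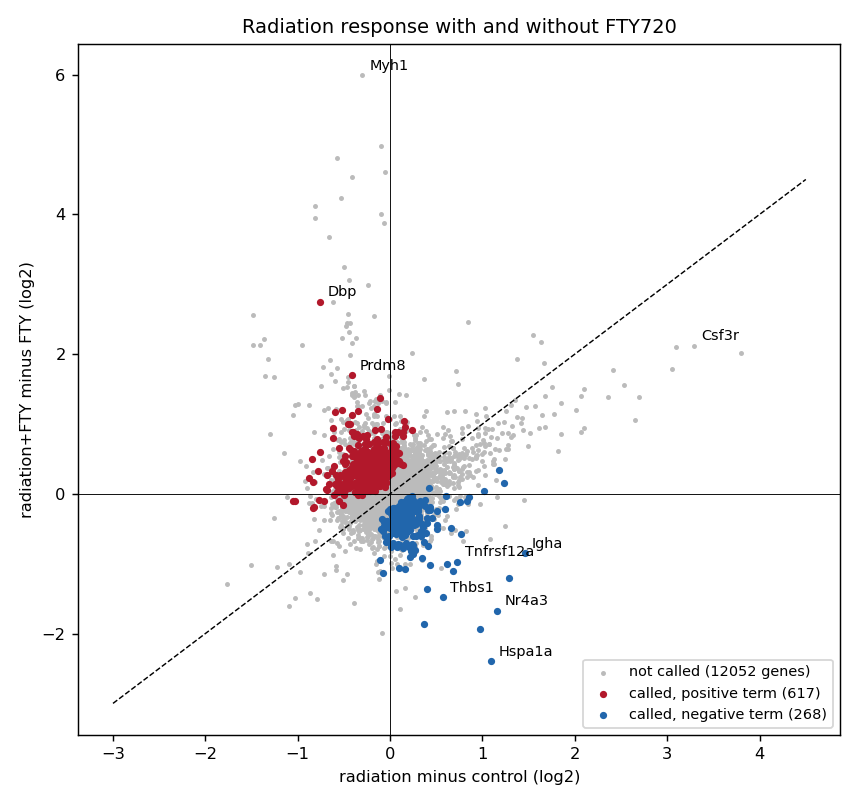
Radiation response of each of 12937 genes in mice given FTY720 (radiation+FTY minus FTY, log2, vertical axis) against the response without it (radiation minus control, log2, horizontal axis), with the 617 positive and 268 negative called interaction terms in colour and equal responses on the dashed line. Myh1, at the top, was not called, and Dbp and Hspa1a mark the called genes with the largest positive and negative terms.

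The number and the balance of calls moved with the arrays and the scaling. Leaving out 1 array gave 441 to 1165 calls. The count moved by over 1.5 times without radiation+FTY replicate 2 (441 calls), control replicate 3 (496), radiation replicate 3 (504), FTY replicate 1 (542), FTY replicate 2 (544), radiation+FTY replicate 1 (552) and radiation replicate 1 (582). Without control replicate 4 there were 829 calls, 696 of them among the 885. Quantile normalization gave 355 positive and 410 negative called terms, and median centring gave 258 and 477. The excess of positive calls thus holds only on the deposited scale. Among terms of at least 1 log2 unit in size, called or not, positive ones stayed in excess. There were 184 positive and 88 negative with quantile normalization, and 171 and 92 with median centring.

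A term can come from any of its 4 groups. A group was said to carry it when that group's mean lay outside the other 3 by more than the range of those 3. A pattern was called crossed when radiation+FTY and control both lay above, or both below, radiation and FTY. There were 268 terms of at least 1 log2 unit in size, 204 positive and 64 negative, and 207 of them were not called. Radiation+FTY carried 117 of the 268, with 113 high there and 4 low. FTY carried 33, radiation 17 and control 7, while 83 were crossed and 11 followed neither pattern. These counts rested on single arrays. Radiation+FTY carried 77 large terms without its replicate 1 and 211 without its replicate 2. FTY carried 51 without FTY replicate 2. Radiation carried 40 without radiation replicate 3, more than the 36 of FTY in that fit, 10 without radiation replicate 1, 11 without control replicate 2 and 3 without radiation+FTY replicate 1. Control carried 15 without control replicate 4, 12 without FTY replicate 2, 4 without radiation+FTY replicate 2 and 3 without FTY replicate 3. Crossed terms numbered 131 without control replicate 1 and 48 without control replicate 2. Among the 885 called terms of any size the order was another. There, 462 (52.2%) were crossed, radiation+FTY carried 226 (152 high and 74 low), FTY carried 110 (26 high and 84 low), control 53 and radiation 19. Over all genes tested, 16.6% were crossed and 22.9% were carried by radiation+FTY. Selection on a double difference favours crossed patterns by its construction, so these shares describe the called genes and test nothing. Only 61 genes were both large and called, and of these 33 were crossed, FTY carried 15, radiation+FTY 8, control 3 and radiation 2.

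**Figure D2:**
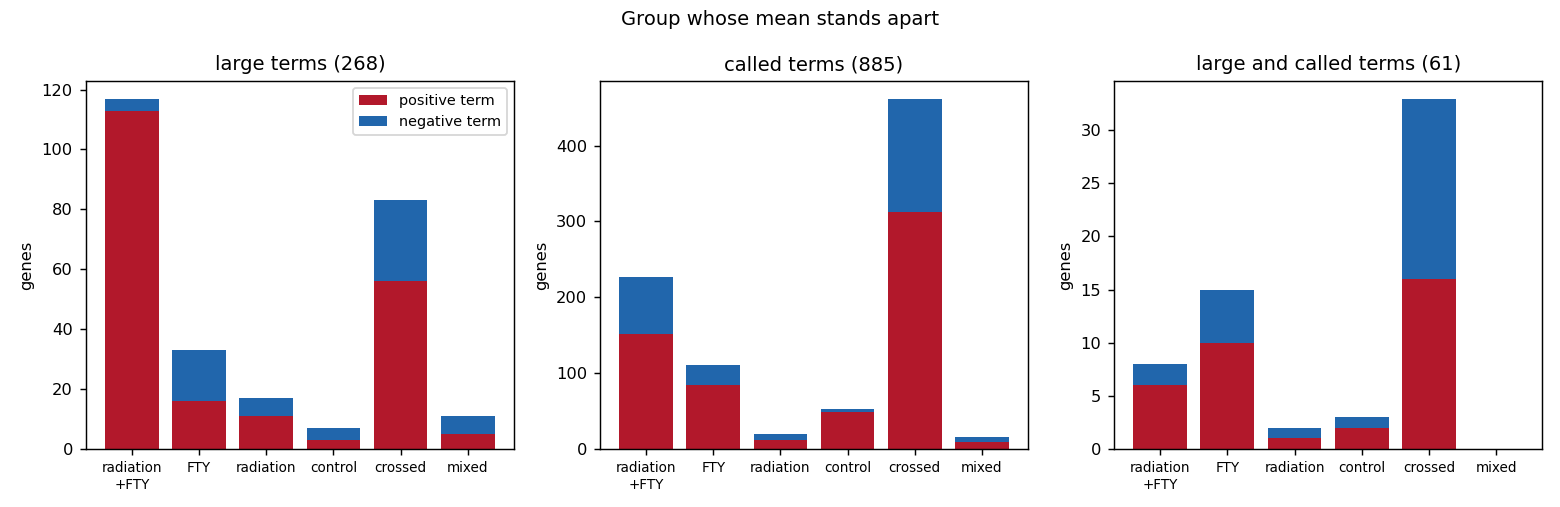
Number of genes (vertical axis) whose interaction term was carried by 1 of the 4 groups, crossed or mixed, for terms of at least 1 log2 unit (268 genes), called terms (885 genes) and terms that were both (61 genes), with positive and negative terms stacked. Radiation+FTY holds 117 of the large terms, but 462 of the called terms and 33 of the large and called terms are crossed. Selection on the term favours crossed patterns by construction.

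The 113 large terms that were high in radiation+FTY rested on part of its arrays. Replicate 1 was the highest of all 13 arrays for 72 of them and replicate 3 for 35. Replicate 2 lay within the range of the 10 other arrays for 98. In 12 genes all 3 radiation+FTY arrays exceeded the 10 others, a count that was not set against all genes tested. Of the 113, 6 were called, against 4.77% of all genes called with a positive term. The 5 largest positive terms by size were all genes of skeletal muscle. Myh1, a fast myosin heavy chain, had 12.93, 7.41 and 13.02 log2 units in radiation+FTY, 5.04, 5.29 and 5.05 in FTY, 5.39, 10.13 and 5.03 in radiation, and 5.91, 12.55, 4.87 and 5.28 in control. Its term of 6.29 ± 3.33 was not called (adjusted p = 0.259). The Z-disc protein gene Myot (5.39 ± 2.84), the troponin genes Tnnc2 (5.07 ± 3.11) and Tnnt3 (4.94 ± 2.98) and the myosin light chain gene Mylpf (4.95 ± 3.04) were not called either. High values stood on radiation+FTY replicates 1 and 3, control replicate 2 and, lower, radiation replicate 2. All 19 skeletal muscle genes tested had positive terms, with a median of 3.74, and none was called. With the per-array means of the skeletal muscle and white fat lists as covariates, 168 large terms were left, 82 of them positive. The terms of the 5 genes then lay between -0.30 and 0.69, which their membership of the muscle list brings about by construction. A list of 12 keratin genes was high on radiation+FTY replicate 1 (mean 9.81) and control replicate 2 (9.25), against 6.69 to 7.35 on the other arrays.

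The circadian clock held the largest called term. Cells keep daily time through a loop in which Arntl and Clock switch on the Per, Cry, Nr1d1 and Dbp genes, whose products feed back. Dbp, Tef and Hlf bind D-box elements and activate genes, and Nfil3 represses through the same element. Of 19 clock genes tested, 6 were called with a positive term and 1 with a negative one, against 6.84% of all genes. The sequence before the Per3 start is shown because it holds the D-box letters TTATGTAA on 2 occasions, capitals marking them. It runs 5′ to 3′ on the minus strand at chr4:151044666-151044915 of GRCm38.p6 and is taken from RefSeq.

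Per3: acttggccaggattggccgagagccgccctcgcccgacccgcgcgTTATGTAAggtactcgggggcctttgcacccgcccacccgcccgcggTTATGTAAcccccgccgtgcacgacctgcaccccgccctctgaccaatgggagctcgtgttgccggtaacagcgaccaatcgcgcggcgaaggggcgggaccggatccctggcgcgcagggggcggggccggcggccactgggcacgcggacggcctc

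The letters were searched on both strands in the 250 bases before each annotated start. They occurred in 264 of 32536 such windows (0.811%) and, of the 6 clock genes Dbp, Per3, Hlf, Nr1d1, Tef and Nfil3, before Per3 alone. The E-box CACGTG, the site of Arntl and Clock, occurred in 6.04% of windows and in those of 1 of the 6 genes, Tef. A match is a run of letters and not a measured binding site.

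Dbp had 11.19, 11.06 and 11.04 log2 units in radiation+FTY, 7.76, 9.02 and 8.26 in FTY, 10.95, 9.87 and 10.01 in radiation, and 10.16, 11.65, 11.70 and 10.62 in control. The FTY arrays were low and did not overlap any other group. The term was 3.51 ± 0.66 (adjusted p = 0.00681 by limma). Radiation raised Dbp 6.72-fold under FTY720 (adjusted p = 0.00182), and the change of -0.76 log2 units with radiation alone was not called (adjusted p = 0.424). Per3, a period gene whose D-boxes are printed above, had 9.03, 9.24 and 9.30 in radiation+FTY, 7.92, 8.32 and 7.80 in FTY, 9.54, 8.73 and 8.73 in radiation, and 9.13, 10.07, 9.90 and 9.30 in control. Here too FTY was the low group, with a term of 1.78 ± 0.41 (adjusted p = 0.0161). Hlf (1.56 ± 0.38), the nuclear receptor and clock repressor gene Nr1d1 (1.54 ± 0.38) and Tef (1.17 ± 0.25) followed, with adjusted p of 0.0191, 0.0206 and 0.0106. FTY carried the terms of Nr1d1 and Tef, and that of Hlf was crossed.

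Nfil3 ran the other way. It had 7.12, 7.25 and 7.77 in radiation+FTY, 9.25, 8.35 and 8.17 in FTY, 7.58, 8.22 and 8.39 in radiation, and 7.83, 6.22, 5.33 and 7.70 in control, with a term of -2.50 ± 0.65 (adjusted p = 0.0279). The FTY arrays were higher than all radiation+FTY and control arrays. Bhlhe40, a repressor of the loop named here after its values were seen, was called at 0.93 ± 0.25 (adjusted p = 0.0301). Arntl, also named after its values were seen, had 7.92, 7.91 and 7.78 in radiation+FTY, 9.47, 9.17 and 9.42 in FTY, 7.27, 8.43 and 8.48 in radiation, and 8.62, 7.02, 7.43 and 8.11 in control. Its 3 highest arrays were those of FTY, but the term of -1.75 ± 0.53 was not called (adjusted p = 0.0533). It was called without control replicate 1 (adjusted p = 0.0188) and without radiation replicate 1 (0.0260). Dbp, Per3 and Tef stayed called without each array in turn. Nr1d1 was lost without FTY replicate 3 (adjusted p = 0.0512), and Hlf without radiation replicate 3 (0.0514) or radiation+FTY replicate 2 (0.0510). Bhlhe40 was lost without any 1 of 6 arrays (adjusted p up to 0.0707), namely control replicates 2 and 3, FTY replicate 3, radiation replicates 2 and 3 and radiation+FTY replicate 1. Nfil3 was lost without any 1 of 6 (up to 0.0723), namely control replicate 2, FTY replicate 1, radiation replicates 2 and 3 and radiation+FTY replicates 1 and 2.

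The heat shock genes held the largest called negative terms. Their products are chaperones that bind unfolded proteins, and the factor Hsf1 switches them on through paired GAA units. Of 15 heat shock and cold-inducible genes tested, 4 were called, all with negative terms, against 2.07% of all genes called with a negative term. The sequences before Hspa1a (chr17:34972157-34972406) and Hspa1b (chr17:34959239-34959488) are shown because these neighbouring genes are near copies. Both lie on the minus strand of GRCm38.p6, run 5′ to 3′ and come from RefSeq, and the capitals mark GAANNTTC, which is 2 facing GAA units.

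Hspa1a: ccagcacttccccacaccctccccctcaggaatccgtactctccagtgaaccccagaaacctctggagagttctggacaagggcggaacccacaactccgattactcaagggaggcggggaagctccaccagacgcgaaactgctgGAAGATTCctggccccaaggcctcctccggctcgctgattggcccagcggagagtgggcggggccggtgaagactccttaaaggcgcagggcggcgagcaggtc

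Hspa1b: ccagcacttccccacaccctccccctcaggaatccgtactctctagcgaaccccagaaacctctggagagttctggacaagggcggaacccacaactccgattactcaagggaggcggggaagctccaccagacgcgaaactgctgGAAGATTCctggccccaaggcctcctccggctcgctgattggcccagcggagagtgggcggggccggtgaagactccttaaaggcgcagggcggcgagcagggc

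The windows share 247 of 250 positions. GAANNTTC, searched on both strands, occurred in 6.72% of the 32536 windows and before 3 of the 4 called genes. Since the genes are near copies, the array may read one through the other, and their 2 calls are not independent. Hspa1a had 8.78, 8.71 and 8.60 log2 units in radiation+FTY, 11.23, 10.87 and 11.18 in FTY, 8.73, 10.76 and 11.33 in radiation, and 10.34, 9.40, 8.36 and 8.60 in control. All FTY arrays were high, as were 2 of the 3 radiation arrays, while radiation+FTY and control overlapped. The term was -3.50 ± 0.67 (adjusted p = 0.00707), and Hspa1b had -2.90 ± 0.64 (adjusted p = 0.0135).

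The co-chaperone genes Dnajb1 and Dnaja1, which hand clients to Hsp70, were called as well. Dnajb1 had 10.06, 10.07 and 10.02 in radiation+FTY, 11.15, 11.05 and 11.27 in FTY, 10.19, 11.11 and 11.45 in radiation, and 10.64, 10.62, 9.77 and 9.93 in control. Its term was -1.79 ± 0.34 (adjusted p = 0.00707), and that of Dnaja1 was -1.07 ± 0.21 (adjusted p = 0.00787). Both patterns were crossed, and the radiation+FTY arrays did not overlap those of FTY or of radiation. The 4 heat shock calls held without each array in turn. In the fit of the 13 arrays alone Hspa1b was not called (adjusted p = 0.0650), and with all probe sets of each gene averaged Dnaja1 was not (0.0543).

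**Figure D3:**
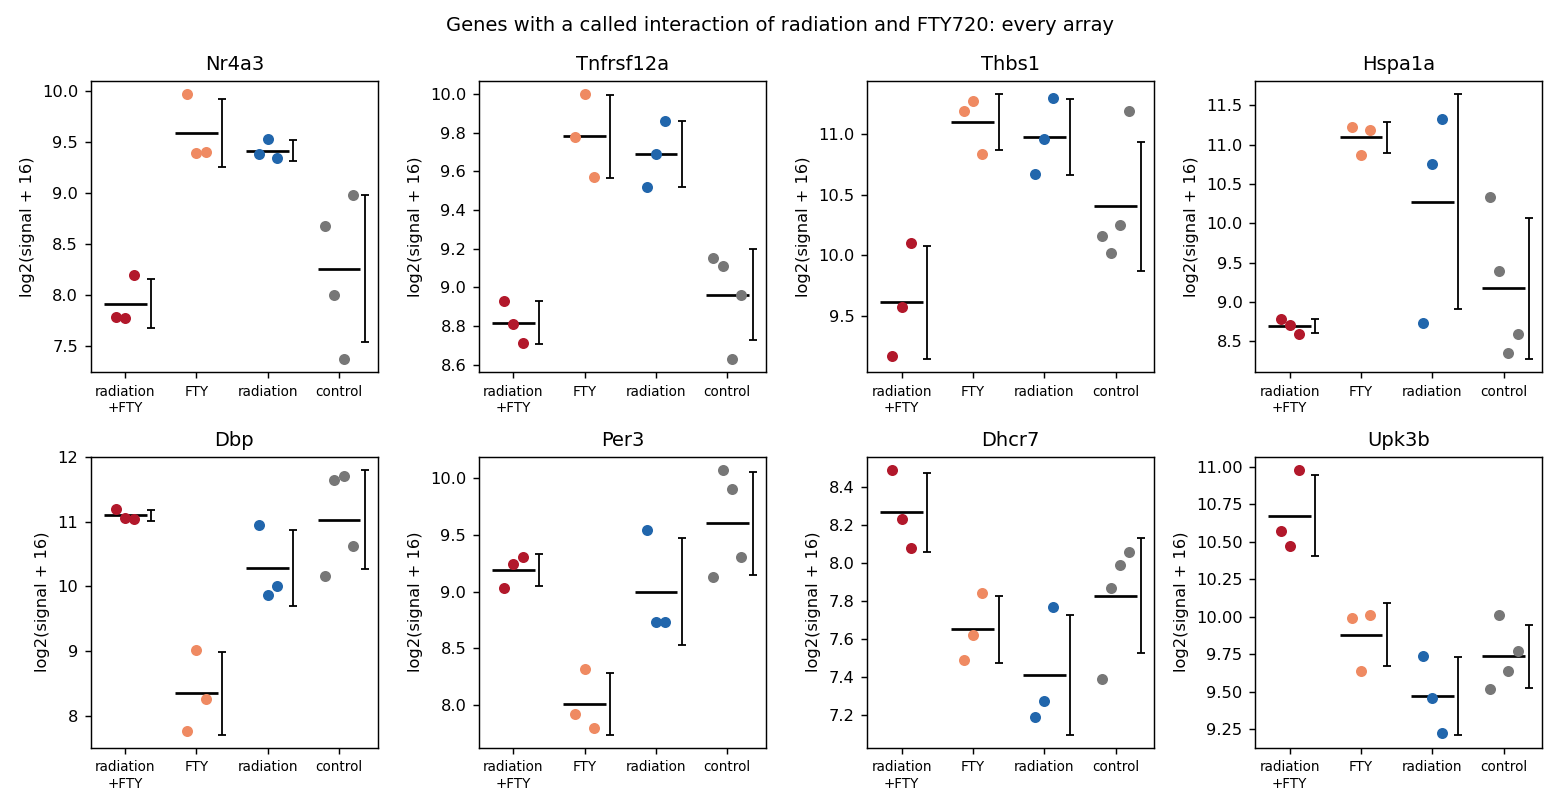
Level of 8 genes with a called interaction term on every array (log2(signal + 16), vertical axis), in radiation+FTY, FTY, radiation (n = 3 each) and control (n = 4), with the group mean as a line and 1 SD as a bar beside it. Nr4a3, Tnfrsf12a and Hspa1a are lower in radiation+FTY and control than in FTY, Dbp and Per3 are lowest in FTY, and Dhcr7 and Upk3b are highest in radiation+FTY.

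Immediate early genes are transcribed within minutes of a stimulus. Of 24 tested, 3 were called, all negative, against 2.07% of all genes, and the list median was -0.20 against 0.05 over all genes. Nr4a3, an orphan nuclear receptor, had 7.78, 7.77 and 8.19 in radiation+FTY, 9.97, 9.39 and 9.40 in FTY, 9.38, 9.53 and 9.34 in radiation, and 8.68, 8.0, 7.37 and 8.98 in control. FTY and radiation did not overlap radiation+FTY or control. The term was -2.83 ± 0.41 (adjusted p = 0.00171), and all 4 single differences were called. The AP-1 subunit genes Fosl2 (-0.83 ± 0.22) and Jun (-0.44 ± 0.12) had an adjusted p of 0.0329 each. Jun was lowest in radiation+FTY (11.28, 11.44 and 11.36), against 11.59 to 12.00 on the 10 other arrays. Nr4a3 stayed called without each array. With probe sets averaged, dim ones included, the term was -0.97 for Nr4a3 (adjusted p = 0.0109), -0.53 for Fosl2 (0.0477) and -0.34 for Jun (0.0744), the last not called. Fosl2 was lost without any 1 of 8 arrays (adjusted p up to 0.0859), all but control replicates 1 and 4, FTY replicate 3, radiation replicate 1 and radiation+FTY replicate 3. Jun was lost without any 1 of 6 (up to 0.0828), namely control replicates 2 and 3, FTY replicate 2, radiation replicates 2 and 3 and radiation+FTY replicate 1.

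The smallest p-values belonged to a pair of genes of opposite sign. Tnfrsf12a, the receptor of the cytokine TWEAK, had 8.93, 8.81 and 8.71 in radiation+FTY, 9.78, 10.00 and 9.57 in FTY, 9.52, 9.69 and 9.86 in radiation, and 9.15, 9.11, 8.63 and 8.96 in control. Its term was -1.70 ± 0.19 (adjusted p = 2.96e-04). Pmepa1, a target and brake of TGF-beta signalling, had 10.85, 10.93 and 10.80 in radiation+FTY, 10.66, 10.54 and 10.48 in FTY, 10.44, 10.53 and 10.54 in radiation, and 10.92, 10.81, 10.92 and 10.92 in control. Its term was 0.69 ± 0.08, with the same adjusted p, and the mean of its 3 probe sets had 0.41 (adjusted p = 0.0158). In both genes radiation and FTY720 alone moved the level one way, and mice given both lay within or beside the control range.

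Plasminogen activators, thrombospondin and TGF-beta form a further list, whose products cleave fibrin and control the release of active TGF-beta. Of 19 genes tested, 2 were called with a positive term and 4 with a negative one, against 4.77% and 2.07% of all genes, and the list median was 0.01. Thbs1, thrombospondin 1, an activator of latent TGF-beta, had 9.17, 9.57 and 10.10 in radiation+FTY, 11.19, 11.27 and 10.84 in FTY, 10.67, 10.96 and 11.30 in radiation, and 10.16, 10.02, 10.25 and 11.19 in control. Radiation+FTY was low and overlapped only control. The term was -2.06 ± 0.34 (adjusted p = 0.00364). Ccn2, a matrix protein induced by TGF-beta, was also low in radiation+FTY (11.67, 11.81 and 11.91, against 11.95 to 12.50 elsewhere), with a term of -0.62 ± 0.16 (adjusted p = 0.0289).

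Plau, the plasminogen activator urokinase, had 7.34, 8.14 and 7.67 in radiation+FTY, 6.30, 6.49 and 6.73 in FTY, 7.00, 6.98 and 6.96 in radiation, and 6.80, 6.83, 7.10 and 7.76 in control, with a term of 1.35 ± 0.30 (adjusted p = 0.0141). The gene of its receptor, Plaur, had the opposite sign, -0.95 ± 0.25 (adjusted p = 0.0302). Skil, a repressor of TGF-beta targets, had -0.38 ± 0.11 (adjusted p = 0.0387), and -0.58 as the mean of its probe sets (0.0275). Thbs1, Plau and Pmepa1 stayed called without each array. Ccn2 and Plaur were lost without any 1 of 7 arrays (adjusted p up to 0.0736 and 0.0759), and Skil without any 1 of 10 (up to 0.0945). Ccn2 kept its call without control replicates 1 and 4, FTY replicate 3, radiation replicates 1 and 2 and radiation+FTY replicate 3. For Plaur those arrays were control replicates 1, 2 and 4, FTY replicate 3, radiation replicate 2 and radiation+FTY replicate 3. For Skil they were control replicate 1, radiation replicate 1 and radiation+FTY replicate 3.

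Genes of sphingolipid handling, the pathway of the drug, were read next. Of 14 genes that sense, make, move or degrade S1P, 2 were called with a positive term and 1 with a negative one, against 6.84% of all genes, and the list median was 0.01. Among the receptors, S1pr1 had 9.27, 9.82 and 10.01 in radiation+FTY, 10.87, 10.98 and 10.27 in FTY, 10.42, 9.99 and 10.47 in radiation, and 10.75, 9.68, 9.77 and 10.34 in control. Radiation+FTY lay below FTY on every array. The term of -1.17 ± 0.38 was not called (adjusted p = 0.0698), but was called without control replicate 1 (0.0238) or FTY replicate 3 (0.0452). S1pr3 had 11.14, 11.31 and 11.28 in radiation+FTY, 10.85, 10.90 and 10.65 in FTY, 11.20, 11.13 and 11.11 in radiation, and 10.92, 11.21, 11.36 and 11.41 in control. FTY was the low group, and the term was 0.53 ± 0.14 (adjusted p = 0.0328). That call was lost without any 1 of 9 arrays (adjusted p up to 0.0751), all but control replicate 1, FTY replicate 2, radiation replicate 1 and radiation+FTY replicate 1. It was also lost with quantile normalization (0.52, adjusted p = 0.0560) and with median centring (0.43, 0.124). S1pr2, which FTY720 phosphate does not bind, had a term of 0.03 ± 0.16 (adjusted p = 0.946), whose sign turned under several settings. Its other probe set, of similar level, had a term of 0.52 ± 0.14 (unadjusted p of limma 0.00143), so that the probe sets of this gene disagree. The mean of the S1pr3 probe sets had 0.31 (adjusted p = 0.301), not called.

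The kinases that make S1P and activate FTY720 were not called through the probe sets of highest mean. Sphk2, held to be the main kinase for FTY720, had 8.56, 8.63 and 8.44 in radiation+FTY, 8.09, 8.02 and 8.08 in FTY, 8.37, 8.30 and 8.38 in radiation, and 8.30, 8.04, 8.26 and 8.34 in control. The radiation+FTY arrays were the 3 highest, and the term was 0.37 ± 0.12 (adjusted p = 0.0601). Its other probe set was dim, with a mean level of 6.76 near the filter cutoff of 6.49, against 8.24 for the main one. That dim probe set had a term of 1.26 ± 0.21, and the mean of both had 0.82, which was called (adjusted p = 0.00130). The main probe set was also called with array weights (0.0334), with muscle and white fat covariates (0.0347), and without control replicate 2 (0.0289) or radiation+FTY replicate 3 (0.0455). Sphk1 had a term of -0.29 ± 0.25 (adjusted p = 0.521) and the S1P lyase gene Sgpl1 -0.01 ± 0.14 (adjusted p = 0.977). Without single arrays the term of Sphk1 ran from -0.49 to -0.17.

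The enzymes that strip phosphate from S1P held the other calls. Sgpp2, an S1P phosphatase, had 9.43, 9.60 and 9.41 in radiation+FTY, 9.47, 9.63 and 8.92 in FTY, 9.36, 9.20 and 9.31 in radiation, and 10.05, 9.83, 10.03 and 9.88 in control. Control stood above all 9 other arrays, and the radiation+FTY arrays lay within the range of FTY. The term was 0.80 ± 0.19 (adjusted p = 0.0195). The call was lost without radiation+FTY replicate 2 (adjusted p = 0.0557) and with median centring (0.0535). Plpp1, a lipid phosphate phosphatase, was low in radiation+FTY (11.04, 11.12 and 11.24, against 11.29 to 11.95 elsewhere), with a term of -0.74 ± 0.17 (adjusted p = 0.0183). The mean of its probe sets had -0.47 (adjusted p = 0.0543), not called.

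Of 20 ceramide and sphingomyelin enzymes tested, 2 were called, 1 in each direction, against 6.84% of all genes. Cerk, ceramide kinase, had a term of -0.62 ± 0.16 (adjusted p = 0.0259). Degs1, the enzyme of the last step to ceramide, had 0.20 ± 0.05 (adjusted p = 0.0362). Another probe set of Degs1 had -0.35 ± 0.15, so the direction for this gene depends on the probe set. Asah1, acid ceramidase, which frees sphingosine, was not called (-0.26 ± 0.08, adjusted p = 0.0548). Its radiation+FTY arrays (11.52, 11.66 and 11.69) lay below the 10 others (11.72 to 11.94), and it was called without FTY replicate 3 (0.0297) or radiation+FTY replicate 3 (0.0439). Cerk was lost without any 1 of 5 arrays (adjusted p up to 0.0683), namely FTY replicates 1 and 2, radiation replicate 3 and radiation+FTY replicates 1 and 2. Degs1 was lost without any 1 of 9 (up to 0.0808), all but control replicates 1 and 4, FTY replicate 2 and radiation replicate 3. With median centring its term was 0.11 and not called (adjusted p = 0.324).

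Of 22 genes of cholesterol and fatty acid synthesis, 4 were called, all positive, against 4.77% of all genes called with a positive term. A term above 0 was found for 18 of the 22, against 57.8% of all genes, and the list median was 0.26. Dhcr7, the enzyme of the last step to cholesterol, had 8.49, 8.23 and 8.08 in radiation+FTY, 7.49, 7.62 and 7.84 in FTY, 7.19, 7.27 and 7.77 in radiation, and 7.39, 7.87, 7.99 and 8.06 in control. The radiation+FTY arrays were the 3 highest, and the term was 1.04 ± 0.24 (adjusted p = 0.0154). Squalene synthase, Fdft1, had 10.62, 10.40 and 10.45 in radiation+FTY, against 9.79 to 10.30 on the 10 other arrays, with a term of 0.91 ± 0.20 (adjusted p = 0.0144). Cyp51, a sterol demethylase, had 0.74 ± 0.17 (adjusted p = 0.0161), and Idi1, an isoprenoid enzyme, had 0.53 ± 0.16 (adjusted p = 0.0481). With the muscle and white fat covariates Idi1 was not called (adjusted p = 0.0942), while Dhcr7, Fdft1 and Cyp51 were. A setting chosen after seeing the data held these covariates and left out control replicate 4. There Dhcr7 (adjusted p = 0.0558), Cyp51 (0.0631) and Idi1 (0.0916) were not called. Idi1 was also lost with quantile normalization (0.0738) and median centring (0.124). With all probe sets of each gene averaged, dim ones included, the term was 0.44 for Fdft1 (adjusted p = 0.0505), 0.42 for Cyp51 (0.0657) and 0.65 for Idi1 (0.0657), none called. In the fit of the 13 arrays alone Dhcr7 (0.0552), Cyp51 (0.0654) and Idi1 (0.0858) were not called. Idi1 was lost without any 1 of 11 arrays (adjusted p up to 0.125), all but control replicate 1 and radiation replicate 3. The white fat list mean was 10.88, 9.72 and 10.69 in radiation+FTY, 10.96, 9.49 and 10.87 in FTY, 8.95, 9.71 and 9.32 in radiation and 9.15, 9.96, 9.41 and 8.72 in control. The part of white fat in the sterol terms was not tested beyond the fits with covariates.

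Genes of mesothelium, the layer that covers the lung, had positive terms. Of 14 tested, 5 were called, against 6.84% of all genes, and all 14 terms were above 0 with a median of 0.67. The list mean was 9.71, 9.71 and 9.93 in radiation+FTY, against 8.89 to 9.39 on the 10 other arrays. Upk3b, a uroplakin of this layer, had 10.57, 10.47 and 10.98 in radiation+FTY, 9.99, 9.64 and 10.01 in FTY, 9.74, 9.46 and 9.22 in radiation, and 9.52, 10.01, 9.64 and 9.77 in control. Its term was 1.06 ± 0.30 (adjusted p = 0.0409). Nkain4 (0.69 ± 0.15, adjusted p = 0.0111) and Lrrn4 (1.22 ± 0.35, adjusted p = 0.0419, named after its values were seen) were likewise highest in radiation+FTY.

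Rspo1, a secreted activator of Wnt signalling, had 0.67 ± 0.14 (adjusted p = 0.00953). Fras1, a basement membrane protein, had 7.41, 7.52 and 7.59 in radiation+FTY, 7.25, 6.97 and 6.81 in FTY, 6.01, 6.85 and 6.55 in radiation, and 6.96, 7.66, 7.34 and 7.31 in control. Here radiation was the low group, and the term was 1.34 ± 0.27 (adjusted p = 0.00856). Of the defining markers of the layer, Msln (9.79 to 10.02 in radiation+FTY, 9.06 to 9.97 in FTY) was not called, nor was Wt1. All 5 were also called in the fit with the muscle and white fat covariates. The part of carried-over tissue in these terms was not tested beyond that fit. With probe sets averaged Upk3b (adjusted p = 0.0667) was not called. Lrrn4 was not called in that run either (0.0536), though it has 1 probe set and its term stayed at 1.22. Rspo1, Nkain4 and Fras1 stayed called without each array. Upk3b and Lrrn4 were each lost without any 1 of 11 arrays (adjusted p up to 0.0998 and 0.0949), Upk3b all but control replicate 1 and radiation replicate 1, and Lrrn4 all but control replicate 1 and FTY replicate 3.

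**Figure D4:**
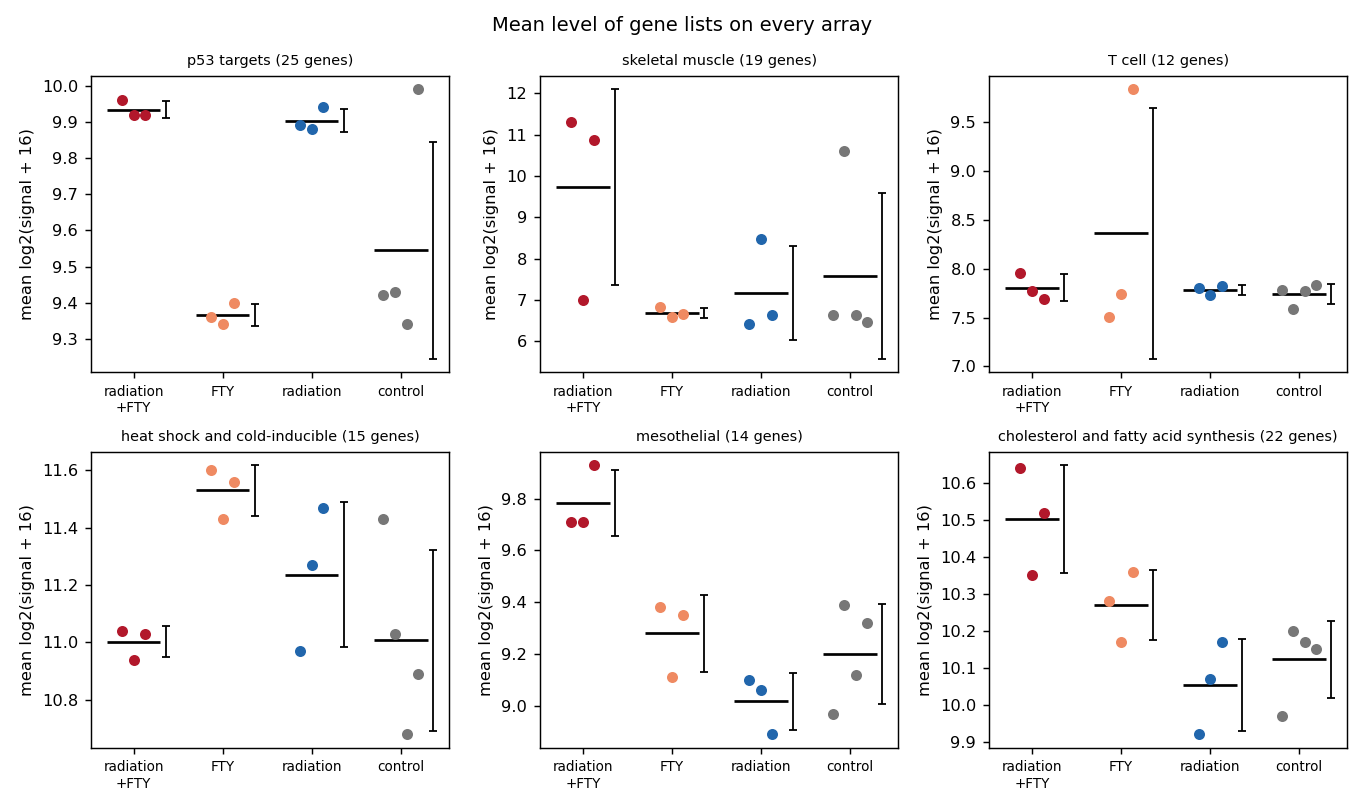
Mean level of 6 gene lists on every array (mean log2(signal + 16) of the members tested, vertical axis) in radiation+FTY, FTY, radiation (n = 3 each) and control (n = 4), with the group mean as a line and 1 SD as a bar. Control replicate 4 sits at 9.99 with the irradiated arrays in the p53 list, skeletal muscle is high on radiation+FTY replicates 1 and 3, and FTY replicate 3 stands at 9.84 in the T cell list.

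The p53 target genes rose with radiation in both settings, by a median of 0.45 log2 units under FTY720 and 0.25 without it. Of 25 tested, 1 was called in each direction, against 4.77% positive and 2.07% negative calls of all genes. A term above 0 was found for 20 of the 25, against 57.8% of all genes, and the list median was 0.21 against 0.05. Control replicate 4, with a list mean of 9.99, raises the control mean, which makes the change without FTY720 smaller and these terms higher. The list mean was 9.34 to 9.43 on the other control arrays and 9.34 to 9.40 in FTY. It was 9.88 to 9.94 in radiation and 9.92 to 9.96 in radiation+FTY. The larger median change under FTY720 and the positive list median therefore rest in part on this 1 array. Sesn1, a stress sensor that restrains mTORC1, had 10.85, 10.89 and 10.60 in radiation+FTY, 10.27, 10.25 and 10.47 in FTY, 10.36, 10.31 and 10.53 in radiation, and 10.90, 10.55, 10.85 and 10.49 in control, with a term of 0.76 ± 0.14 (adjusted p = 0.00700). The mean over its 4 probe sets gave 0.31 (adjusted p = 0.0991). Fas, a death receptor, had -0.89 ± 0.24 (adjusted p = 0.0312). Cdkn1a, the cell cycle inhibitor p21, was not called (-0.74 ± 0.53, adjusted p = 0.418). Its values were 11.67, 11.93 and 11.92 in radiation+FTY, 11.61, 11.30 and 11.10 in FTY, 11.91, 11.92 and 12.08 in radiation, and 11.34, 9.80, 9.72 and 12.02 in control. Without single arrays the term ran from -1.18 to -0.41.

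Mdm2, the inhibitor of p53, had -0.26 ± 0.11 (adjusted p = 0.171). Without control replicate 4 it was called (-0.34, adjusted p = 0.0409), and another of its probe sets had the opposite sign (0.32 ± 0.19). Fas was lost without any 1 of 7 arrays (adjusted p up to 0.0797), namely control replicates 2 and 3, FTY replicates 1 and 2, radiation replicate 1 and radiation+FTY replicates 1 and 2.

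Genes of neutrophils had higher levels after radiation in both settings. The median change of 11 such genes with radiation was 1.38 log2 units under FTY720 and 2.07 without it. The median term was -0.81, but 1 gene was called, against 6.84% of all genes. This was Trem1, a receptor that amplifies myeloid inflammation, with 6.38, 6.79 and 7.32 in radiation+FTY, 6.82, 6.79 and 6.41 in FTY, 7.84, 8.07 and 7.38 in radiation, and 6.63, 6.42, 6.36 and 6.71 in control. Radiation stood above all 10 other arrays, and the term was -1.08 ± 0.30 (adjusted p = 0.0367). Csf3r, the receptor of granulocyte colony-stimulating factor, had 8.12, 9.09 and 9.80 in radiation+FTY, 6.63, 7.59 and 6.42 in FTY, 11.12, 10.46 and 9.83 in radiation, and 6.51, 6.63, 7.35 and 8.22 in control. Radiation raised it under FTY720 (2.12 ± 0.49, adjusted p = 0.00910) and without it (3.29 ± 0.46, adjusted p = 3.57e-04), and the term of -1.17 ± 0.68 was not called (adjusted p = 0.303).

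Il1b, an inflammatory cytokine of myeloid cells, behaved alike, with a term of -0.96 ± 0.48 (adjusted p = 0.233) beside increases of 1.39 ± 0.35 under FTY720 and 2.36 ± 0.33 without it. Without single arrays the terms ran from -1.57 to -0.73 for Csf3r and from -1.28 to -0.62 for Il1b. Trem1 was lost without any 1 of 8 arrays (adjusted p up to 0.0979), all but control replicates 1 and 4, FTY replicate 3, radiation replicate 3 and radiation+FTY replicate 3. Monocyte genes (18) and interferon-induced genes (18) had no call, against 6.84% of all genes, with medians of -0.21 and 0.03.

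Lymphocyte lists differed on single arrays. Of 12 T cell genes 1 was called, against 6.84% of all genes, and the list median was -0.72. FTY replicate 3 had a list mean of 9.84 there, against 7.51 to 7.96 on the 12 other arrays. The called gene, Il7r, the receptor of a lymphocyte survival cytokine, had 8.30, 8.09 and 8.36 in radiation+FTY, 8.89, 8.97 and 9.32 in FTY, 8.95, 8.45 and 8.91 in radiation, and 8.86, 8.11, 8.56 and 8.65 in control. Its term was -1.04 ± 0.30 (adjusted p = 0.0433), lost without any 1 of 10 arrays (up to 0.0966), all but control replicates 1 and 4 and radiation replicate 2. The same FTY replicate 3 stood apart in 19 cell cycle genes, with a mean of 9.50 against 7.63 to 8.36 elsewhere. There the median term was -0.61, and 1 gene was called, against 6.84% of all genes. This was Pcna, the clamp of DNA polymerase (-0.71 ± 0.16, adjusted p = 0.0135). Its term was -0.53 without FTY replicate 3 and stayed called. All 16 B cell genes had positive terms, with a median of 0.92, and none was called. Radiation replicate 1 was lowest there (mean 6.95). Of 10 plasma cell and immunoglobulin genes, 2 were called with a positive term and 1 with a negative one, against 4.77% and 2.07% of all genes. The list median was -0.09. The positive terms were those of Sdc1 (0.29, adjusted p = 0.00787 by limma) and Prdm1 (0.67, 0.0456), and the negative one was that of Igha. Igha, the constant region of IgA, had 11.72, 10.18 and 10.18 in radiation+FTY, 11.33, 11.62 and 11.67 in FTY, 11.58, 11.08 and 10.68 in radiation, and 9.56, 9.28, 9.60 and 10.20 in control. Control was the low group but overlapped radiation+FTY, with a term of -2.31 ± 0.69 at the threshold (adjusted p = 0.0498). It was lost without any 1 of 11 arrays (up to 0.115), all but control replicate 4 and radiation+FTY replicate 1.

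**Figure D5:**
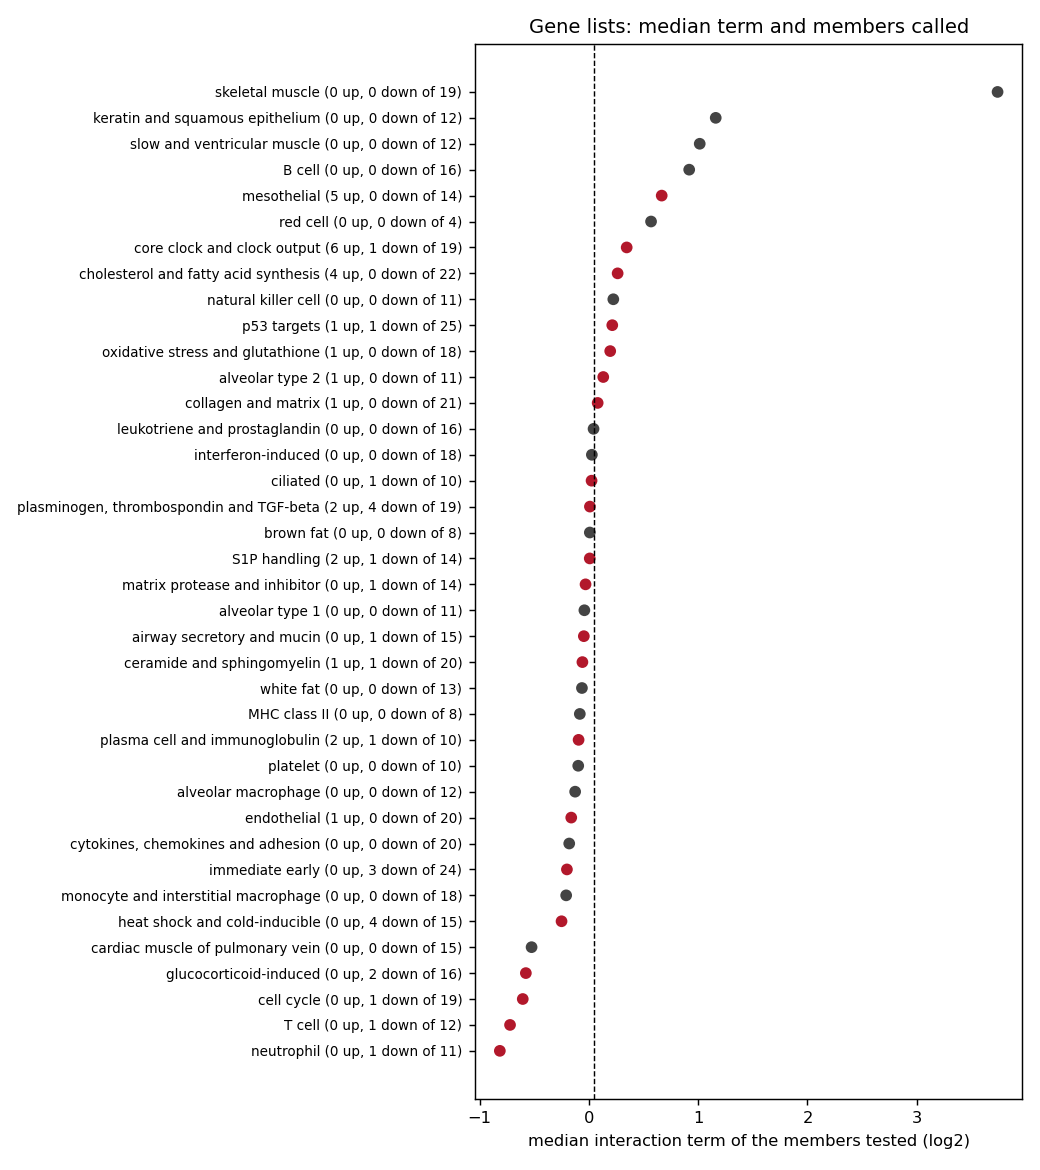
Median interaction term of each gene list (log2, horizontal axis; 1 point per list, with members called up and down of those tested in its name), beside the median of all genes (dashed line). Skeletal muscle stands at 3.74 with no member called, while clock, mesothelial and sterol lists combine smaller medians with 7, 5 and 4 calls.

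Further called genes stood among the largest terms. On the positive side, Prdm8, a histone methyltransferase relative, had 7.89, 8.18 and 7.90 in radiation+FTY, 6.33, 6.12 and 6.42 in FTY, 7.33, 7.75 and 7.34 in radiation, and 6.98, 8.16, 8.43 and 7.96 in control. FTY was below every other array, and the term was 2.11 ± 0.36 (adjusted p = 0.00364). The unnamed transcript 2410022M11Rik (1.53 ± 0.24, adjusted p = 0.00248) was also low in FTY. Gsta2, a glutathione transferase, was high in radiation+FTY (9.91, 10.13 and 9.55, against 8.50 to 9.54 elsewhere), with a term of 1.72 ± 0.44 (adjusted p = 0.0240). Rec8, a meiotic cohesin (1.48 ± 0.33, adjusted p = 0.0147), and Sel1l3 (1.43 ± 0.30, adjusted p = 0.00974) were carried by the same group. The mean of the 2 Sel1l3 probe sets, 1 of them below the filter on low values, had 0.62 (adjusted p = 0.112). Crossed patterns were those of Prr15 (1.45 ± 0.32, adjusted p = 0.0134), of the adhesion molecule Nectin4 (1.42 ± 0.38, adjusted p = 0.0329) and of Tet1, a DNA demethylating enzyme (1.36 ± 0.26, adjusted p = 0.00707). One of 4 probe sets of Tet1 had a negative term (-0.18 ± 0.16), and their mean had 0.70 (adjusted p = 0.0217). For Nectin4 the mean of the probe sets had 0.89 (0.0667), not called. Gsta2 was lost without FTY replicate 1 (adjusted p = 0.0545), FTY replicate 2 (0.0512), radiation replicate 3 (0.0547) or radiation+FTY replicate 2 (0.0653), and with the muscle and white fat covariates (0.0576). Nectin4 was lost without any 1 of 8 arrays (up to 0.0802), all but control replicates 1 and 4, radiation replicates 1 and 2 and radiation+FTY replicate 3.

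On the negative side, Angptl4, an inhibitor of lipoprotein lipase, had 9.08, 8.30 and 10.11 in radiation+FTY, 11.25, 10.93 and 10.87 in FTY, 10.49, 10.16 and 9.68 in radiation, and 10.99, 9.0, 8.92 and 10.09 in control, with a term of -2.22 ± 0.62 (adjusted p = 0.0376). It and Tsc22d3, a glucocorticoid-induced repressor (-0.95 ± 0.27, adjusted p = 0.0379), were the 2 called of 16 genes that glucocorticoids induce, against 6.84% of all genes, and the list median was -0.58. Tmem252 (-1.77 ± 0.45, adjusted p = 0.0241) and Crem, a factor of the cyclic AMP response (-1.44 ± 0.27, adjusted p = 0.00632), were high in FTY. Crem had 9.28, 9.19 and 8.85 there, against 7.55 to 8.70 on the 10 other arrays. Adamts9, a protease of versican and aggrecan, was crossed (-1.62 ± 0.40, adjusted p = 0.0222). With probe sets averaged the term was -1.11 for Angptl4 (adjusted p = 0.0996), which was not called, -0.92 for Adamts9 (0.0289) and -0.59 for Crem (0.0342). Angptl4 and Tsc22d3 were lost without any 1 of 9 and 10 arrays (adjusted p up to 0.102 and 0.0927). Angptl4 kept its call without control replicates 1 and 4, radiation replicate 3 and radiation+FTY replicate 3, and Tsc22d3 without the 2 named controls and radiation+FTY replicate 3. Adamts9 was lost without any 1 of 5 (up to 0.0614), namely FTY replicate 2, radiation replicates 2 and 3 and radiation+FTY replicates 1 and 2. Tmem252 was lost without any 1 of 4 (up to 0.0677), namely FTY replicate 1, radiation replicate 3 and radiation+FTY replicates 1 and 2.

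The fit of the 13 arrays alone, which estimates the spread from 4 groups, ended 23 of the 54 calls of named genes. Beside those already given, these were Plau (adjusted p = 0.0529), Hlf (0.0552), Nr1d1 (0.0504), Bhlhe40 (0.0552), Nfil3 (0.0888), Tmem252 (0.0752), Angptl4 (0.103), Tsc22d3 (0.0930), Trem1 (0.0829), Fas (0.0912), Pcna (0.0552), Fosl2 (0.105), Jun (0.0710), Plpp1 (0.0646), Sgpp2 (0.0524), S1pr3 (0.0812), Degs1 (0.0969), Ccn2 (0.0772) and Il7r (0.0524). Averaging probe sets also ended the calls of Igha (0.0748) and Il7r (0.165).

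The other compounds were compared through their own radiation responses, in which the radiation and control arrays cancel. SEW-2871 is an S1pr1 agonist not built like sphingosine, and (S)-FTY-phosphonate carries a phosphonate in place of the phosphate of active FTY720. Doses were equal at 0.1 mg/kg. No gene was called by limma for the difference between the FTY720 and SEW-2871 responses (0%), with 1064 genes at an unadjusted p under 0.05, a smallest adjusted p of 0.133 and a median 95% half-width of 0.31. With array weights the same comparison called 196 genes, and without FTY replicate 3 or radiation+FTY replicate 2 it called 6. The smallest p-values were those of Itgb6 (-1.10 ± 0.19), the integrin that activates TGF-beta, of Thbs3 (-0.85 ± 0.15) and of Pik3r3 (-1.03 ± 0.19), at an adjusted p of 0.133 each. On the positive side stood Rnf144b (0.53 ± 0.11, adjusted p = 0.156), Igkv6-14 (3.11 ± 0.67, 0.162) and Foxo1 (0.45 ± 0.10, 0.199). Igkv6-14 was called without radiation+FTY replicate 2 (0.0286), and Itgb6 (0.0296) and Thbs3 (0.0237) without FTY replicate 3.

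Against (S)-FTY-phosphonate, 150 genes were called (1.16%), 102 higher for FTY720 (0.788%) and 48 lower (0.371%). Of the 150, 80 were among the 885 called for the interaction, against 6.84% of all genes. Both comparisons hold the radiation+FTY and FTY arrays, which favours such overlap by construction. The genes of smallest p were Rfng, a fringe that modifies Notch (0.48 ± 0.07, adjusted p = 0.0165), Trub2, a pseudouridine synthase (0.78 ± 0.13, 0.0216), and Atg9a, a membrane protein of autophagy (0.96 ± 0.16, 0.0216). In the other direction they were Azin1, the antizyme inhibitor (-0.51 ± 0.08, 0.0165), the repressor Klf3 (-0.68 ± 0.11, 0.0216) and Brwd1 (-0.73 ± 0.13, 0.0244). Trub2 had 8.98, 9.06 and 8.91 in radiation+FTY, against 8.15 to 8.71 on the other 10 arrays of the 4 groups. Its interaction term was 0.83 ± 0.12 with FTY720 and 0.05 ± 0.12 with (S)-FTY-phosphonate.

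These calls rested on single arrays. There were 0 without fTyS replicate 2 or radiation+fTyS replicate 1, 1 without FTY replicate 2 and 3 without radiation+FTY replicate 1, where fTyS stands for (S)-FTY-phosphonate. There were 29, 42, 56 and 61 without radiation+FTY replicate 2, fTyS replicate 1, FTY replicate 1 and radiation+fTyS replicate 3, and 383 and 630 without radiation+fTyS replicate 2 and fTyS replicate 3. All 6 genes named were lost without fTyS replicate 2, FTY replicate 2 or radiation+fTyS replicate 1 (adjusted p 0.0592 to 0.0826). Trub2, Atg9a, Klf3 and Brwd1 were lost without radiation+FTY replicate 1 as well. With probe sets averaged the difference was 0.13 for Rfng (adjusted p = 0.496), -0.23 for Brwd1 (0.114) and -0.72 for Klf3 (0.0677), none called, and -1.08 for Azin1 (0.0364). The other Rfng probe set had an interaction term of -0.20, opposite in sign to that of the main one. Median centring turned the split to 38 higher and 87 lower, and quantile normalization gave 75 and 45.

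The interaction terms of the 3 compounds share the radiation and control arrays and are given side by side without a test of likeness. The fit called 1797 genes for SEW-2871 (13.9%) and 175 for (S)-FTY-phosphonate (1.35%). Tnfrsf12a had -1.70 with FTY720, -1.22 with SEW-2871 and -1.05 with (S)-FTY-phosphonate. Nr4a3 had -2.83, -2.05 and -2.25 in the same order of compounds, and Hspa1a had -3.50, -2.58 and -2.55. Pmepa1 had 0.69, 0.66 and 0.63. Dbp had 3.51, 1.10 and 1.77, and of these the last pair was not called (adjusted p of 0.282 and 0.186). The differences between the FTY720 term of Dbp and those of SEW-2871 (2.40 ± 0.68, adjusted p = 0.370) and (S)-FTY-phosphonate (1.73 ± 0.68, adjusted p = 0.175) were not called. For Upk3b the terms were 1.06, 0.45 and -0.10, and neither difference was called (adjusted p of 0.629 and 0.0686). Rspo1 was called for the difference from (S)-FTY-phosphonate, at 0.73 (adjusted p = 0.0257). This call is among the 150 above, of which 0 were left without fTyS replicate 2 or radiation+fTyS replicate 1.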

How the data were processed

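Total lung RNA of 25 mice was read on Affymetrix arrays, 13 of them in the 4 groups compared here. Array intensity values, deposited by the authors on a linear scale, came from GCOS per the submitters' processing notes, and the version and scaling target are not given in the sources used here. Of 45101 probe sets, 34945 had a single gene symbol, giving 18193 genes. Each was read through its probe set of highest mean as log2(intensity + 16), and 12937 genes above the 40th percentile of mean level (6.49) were tested. limma 3.58.1 in R 4.3.3 fitted 8 group means over the 25 arrays, with a mean-variance trend and 17 residual degrees of freedom. Double differences of these means were tested with Benjamini-Hochberg adjustment over all genes tested. P-values measure the spread between mice as labelled. Precision is limited by how many arrays each group has. The procedure was checked on simulated data.

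The members, lists and tests were chosen with earlier results of these data known. The rule for named genes took the 12 largest called terms and the 5 largest of any terms in each direction. It also took up to 4 members per list by smallest p, called or not, and 11 fixed sphingolipid, p53 and inflammatory genes. For the differences between compounds it took 3 per direction. List members within the rule that were not called, such as those of the B cell and monocyte lists, were mostly not named. Bhlhe40, Arntl, Lrrn4, Plaur and Skil fall outside this rule and were chosen after their values were seen. Some called list members within the rule were left out of the 54 named calls and not followed singly through the alternatives. These were Sdc1, Prdm1, Col8a1 (term 0.93, adjusted p = 0.0376 by limma), Ednrb (0.38, 0.0217), Etv5 (0.78, 0.0282), Cyp2f2 (-0.23, 0.0352) and Tppp3 (-0.43, 0.0179). Alternatives covered scaling, pseudocount, filter, probe sets, model, replicate block, tissue covariates and single arrays. The setting that joined covariates with leaving out control replicate 4 was chosen after seeing the data.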

Additional observations from a re-analysis of the deposited data

Results flagged for a closer look

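The interaction is itself a difference between 2 radiation responses, so a called term is an estimated difference in response with and without FTY720. At an adjusted p of at most 0.05 some calls can be false, and 26 of the 54 named calls were lost by leaving out 1 array. There were 885 genes with a called term by limma. Another 150 calls were for a difference between the responses under FTY720 and (S)-FTY-phosphonate. The terms of the clock genes were 3.51 for Dbp, 1.78 for Per3, 1.56 for Hlf, 1.54 for Nr1d1, 1.17 for Tef, 0.93 for Bhlhe40 and -2.50 for Nfil3. Other large positive terms were 2.11 for Prdm8, 1.72 for Gsta2, 1.53 for 2410022M11Rik, 1.48 for Rec8, 1.45 for Prr15, 1.43 for Sel1l3, 1.42 for Nectin4 and 1.36 for Tet1. Heat shock terms were -3.50 for Hspa1a, -2.90 for Hspa1b, -1.79 for Dnajb1 and -1.07 for Dnaja1. Immediate early terms were -2.83 for Nr4a3, -0.83 for Fosl2 and -0.44 for Jun.

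Further negative terms were -2.31 for Igha, -2.22 for Angptl4, -1.77 for Tmem252, -1.70 for Tnfrsf12a, -1.62 for Adamts9, -1.44 for Crem, -1.08 for Trem1, -1.04 for Il7r, -0.95 for Tsc22d3, -0.89 for Fas and -0.71 for Pcna, and Sesn1 had 0.76. Around TGF-beta and plasminogen the terms were -2.06 for Thbs1, 1.35 for Plau, -0.95 for Plaur, 0.69 for Pmepa1, -0.62 for Ccn2 and -0.38 for Skil. Sphingolipid terms were 0.80 for Sgpp2, -0.74 for Plpp1, 0.53 for S1pr3, -0.62 for Cerk and 0.20 for Degs1. Sterol terms were 1.04 for Dhcr7, 0.91 for Fdft1, 0.74 for Cyp51 and 0.53 for Idi1. Mesothelial terms were 1.34 for Fras1, 1.22 for Lrrn4, 1.06 for Upk3b, 0.69 for Nkain4 and 0.67 for Rspo1. The differences from (S)-FTY-phosphonate were 0.96 for Atg9a, 0.78 for Trub2, 0.48 for Rfng, -0.51 for Azin1, -0.68 for Klf3 and -0.73 for Brwd1.

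Control replicate 2 stood far from the other 3 control arrays by Dixon's criterion in 4 of the 82 genes checked. Its level was 12.55 for Myh1, 12.11 for Mylpf, 9.87 for Myot and 10.81 for Pmepa1. Chance flags about 1 in 20 groups.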

How the results depend on the processing

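Of the 54 named genes with a called term, 28 stayed called without each array in turn and 18 under every alternative run. Quantile normalization ended 7 of the 54 calls and median centring 6. The count of 885 calls became 375 when the fit held only the 4 groups, 522 when probe sets of a gene were averaged, 1741 under array weights, and 441 to 1165 without single arrays. Calls in the gene lists (51) became 98 under array weights and 25 in the fit of the 4 groups, and 30 to 68 without single arrays. The 268 large terms became 145 with the filter at the 60th percentile, 168 with muscle and white fat covariates and 177 with these and no control replicate 4, and 215 to 342 without single arrays. The difference from (S)-FTY-phosphonate (150 calls) gave 67 with no filter, 2938 with array weights and 0 to 630 without single arrays. That from SEW-2871 (0 calls) gave 196 with array weights, 7 with covariates, 22 with covariates and no control replicate 4, and 0 to 6 without single arrays.

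Signs turned for S1pr2, at -0.0546 with quantile normalization, -0.0652 with median centring, and -0.1016 to 0.1522 over the fits without single arrays. It was below 0 without control replicate 1, FTY replicate 1 or 3, radiation replicate 2 or 3, or radiation+FTY replicate 2. Sgpl1 had 0.0393 with array weights and -0.1194 to 0.1392 without single arrays, above 0 without control replicate 1, FTY replicate 3, radiation replicate 2 or radiation+FTY replicate 3. Degs1 had -0.0741 when its probe sets were averaged. With covariates Tnnc2 had -0.11 and Mylpf -0.30, and Mylpf had -0.21 with these and no control replicate 4, where the covariate holds these genes. The cause was not tested. The replicate numbers did not pair the arrays across the 4 groups. Same-numbered radiation and control arrays correlated at 0.354, 0.529 and 0.166, but in each of the other 5 pairs of groups at least 1 correlation was below 0, down to -0.717, and 4 of 13 arrays correlated best with their own number. With the replicate block there were 768 calls, 647 of them among the 885, and control replicate 4, whose number occurs once, then adds nothing to the fit. The block ended the calls of Igha (adjusted p = 0.0534), Trem1 (0.0527), Fas (0.0529), S1pr3 (0.0671), Upk3b (0.0723), Lrrn4 (0.0824) and Skil (0.0608), and Mdm2 was called (0.0297).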
